A study of Mus musculus with 6 samples.

Results

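The nuclear genome encodes most subunits of complexes II to V of the mitochondrial inner membrane, and the transcripts of 46 such genes were compared between HINT2-overexpressing and control hearts under pressure overload. The members were chosen by gene symbol, as the structural subunits of succinate dehydrogenase (complex II), the cytochrome bc1 complex (complex III), cytochrome c oxidase (complex IV) and ATP synthase (complex V), together with the electron carrier Cycs and the ATP synthase inhibitor Atpif1. They matched 47 of the 54532 rows of the count table, because a second row named Atp5o held 0 counts in all libraries, and all 46 genes were among the 14774 genes that passed the filter on low counts. Complex II gave 4 members, complex III 9, cytochrome c 1, complex IV 16 and complex V 15, beside its inhibitor Atpif1.

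Left ventricles were taken 4 weeks after aortic banding (AB), which narrows the aorta and overloads the left ventricle, and poly-A selected RNA was sequenced from 3 TG and 3 NTG mice with 1 library per heart. TG mice, with the genotype label HINT2CTG-Myh6Cre, carry HINT2 under the CAG promoter with a floxed stop cassette, and Cre from the cardiomyocyte promoter Myh6 deletes that cassette after tamoxifen at 5 mg/kg per day for 7 days. NTG mice are the non-transgenic controls on C57BL/6J, and male mice of 8 to 10 weeks were banded in both groups. Whether NTG mice received tamoxifen or carried Cre is not given in the sources used here, so effects of HINT2, Cre and tamoxifen cannot be told apart, and no library from a heart without AB was analysed here.

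Electrons from succinate enter at complex II and pass through ubiquinone, complex III and cytochrome c to complex IV, which reduces oxygen. Complexes III and IV pump protons out of the matrix, complex II does not, and ATP synthase lets the protons flow back through a rotating ring of c subunits to make ATP. Heart muscle holds these complexes at high density and uses muscle-specific isoforms of some complex IV subunits, and complexes III, IV and V also need partner subunits encoded by mitochondrial DNA, whereas complex II does not.

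The libraries held 14863568 to 17581220 counts on genes in NTG and 14944465 to 17235802 in TG. Hint2 had 12, 545 and 559 counts in the libraries labelled NTG 1, NTG 2 and NTG 3 and 793, 828 and 859 in TG 1, TG 2 and TG 3, so the library labelled NTG 1 stood apart from the other libraries labelled NTG. Its group rests on the label alone, which leaves every NTG mean and fold change that includes it uncertain. The counts of called members are also given without it. Cardiomyocyte markers summed to 22888 to 37668 CPM (counts relative to the TMM-scaled library total) in NTG and 35409 to 43493 in TG, with all 8 fitted higher in TG, and fibroblast markers to 4709 to 10852 and 2317 to 4017 CPM, with all 8 fitted lower. Macrophage markers summed to 294 to 537 CPM in NTG and 203 to 262 in TG, erythroid markers to 1310 to 2245 and 762 to 908, and the defining markers of adipocytes stayed at or under 2.53 CPM in sum. Atrial markers summed to 67.5, 2.23 and 2.20 CPM in NTG 1 to 3 and to 4.76, 29.2 and 167 in TG 1 to 3, so the libraries labelled NTG 1, TG 2 and TG 3 held more of them than the rest. In such bulk samples more cardiomyocytes and more RNA per cardiomyocyte cannot be told apart, and the part of these marker levels in the differences between groups was not tested.

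Of the 46 subunit genes, 45 were fitted higher in TG, where 48.7% of all tested genes were fitted higher. Their median log2 fold change was 0.38, against -0.01 over all tested genes. By complex the medians were 0.40 in complex II, 0.43 in complex III, 0.38 in complex IV and 0.37 in complex V. The single gene fitted lower was Atpif1. With edgeR's quasi-likelihood test and Benjamini-Hochberg adjustment over all tested genes, 0 members were called, as were 0% of all genes, where a call needed an adjusted p below 0.05 together with an absolute log2 fold change above 0.5. At an unadjusted p under 0.05 in edgeR, 17 members were higher in TG, against 8.83% of all genes, and 0 were lower, against 9.76%. DESeq2, with the same thresholds, called 8 members higher (Sdhb, Uqcrq, Uqcr11, Cox5b, Cox7a1, Atp5e, Atp5g1 and Atp5g3) and 0 lower, where it called 1.54% of all genes higher and 2.39% lower. All 3 TG libraries lay above all 3 NTG libraries for 15 members, where 11.2% of genes did, and below them for 1 member, where 12.3% did.

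The calls depended on single libraries. edgeR called 3 members, Uqcr11, Uqcrq and Cox5b, when no filter on low counts was applied (0.432% of all genes). Without the library labelled NTG 1, edgeR called 9 members higher (Sdhb, Uqcrq, Uqcr11, Cox5b, Cox7a1, Cox8b, Atp5e, Atp5j and Atp5g3), with 2.67% of all genes called higher, and DESeq2 called 26 (5.92%). DESeq2 called 13 members without TG 2 (1.93%), 2 without NTG 2 (0.313%), 2 without NTG 3 (0.264%), and 0 without TG 1 (0.679%) or without TG 3 (0.193%). The members whose groups did not overlap, with TG above, numbered 43 without the library labelled NTG 1 (23.4% of genes) and also 43 without TG 2 (20.2%), against 15 without NTG 2 (13.8%), NTG 3 (15.2%) or TG 1 (14.7%) and 16 without TG 3 (15.2%). The median fold change of the members stayed above 0 in each of these fits, from 0.28 without NTG 2 to 0.52 without the library labelled NTG 1, and without NTG 2 the medians of complexes II and III were both 0.27. Without NTG 2, 13 of the 46 single fold changes were smaller by over 1.5 times, against 0 to 4 without any other library. A length offset, which removes a trend of fold change with gene length over all genes, lowered 7 fold changes by over 1.5 times and raised that of Atp5l. Among the 46 members themselves, Spearman's rho of fold change and gene length was 0.06 without the offset and 0.32 with it.

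**Figure D1:**
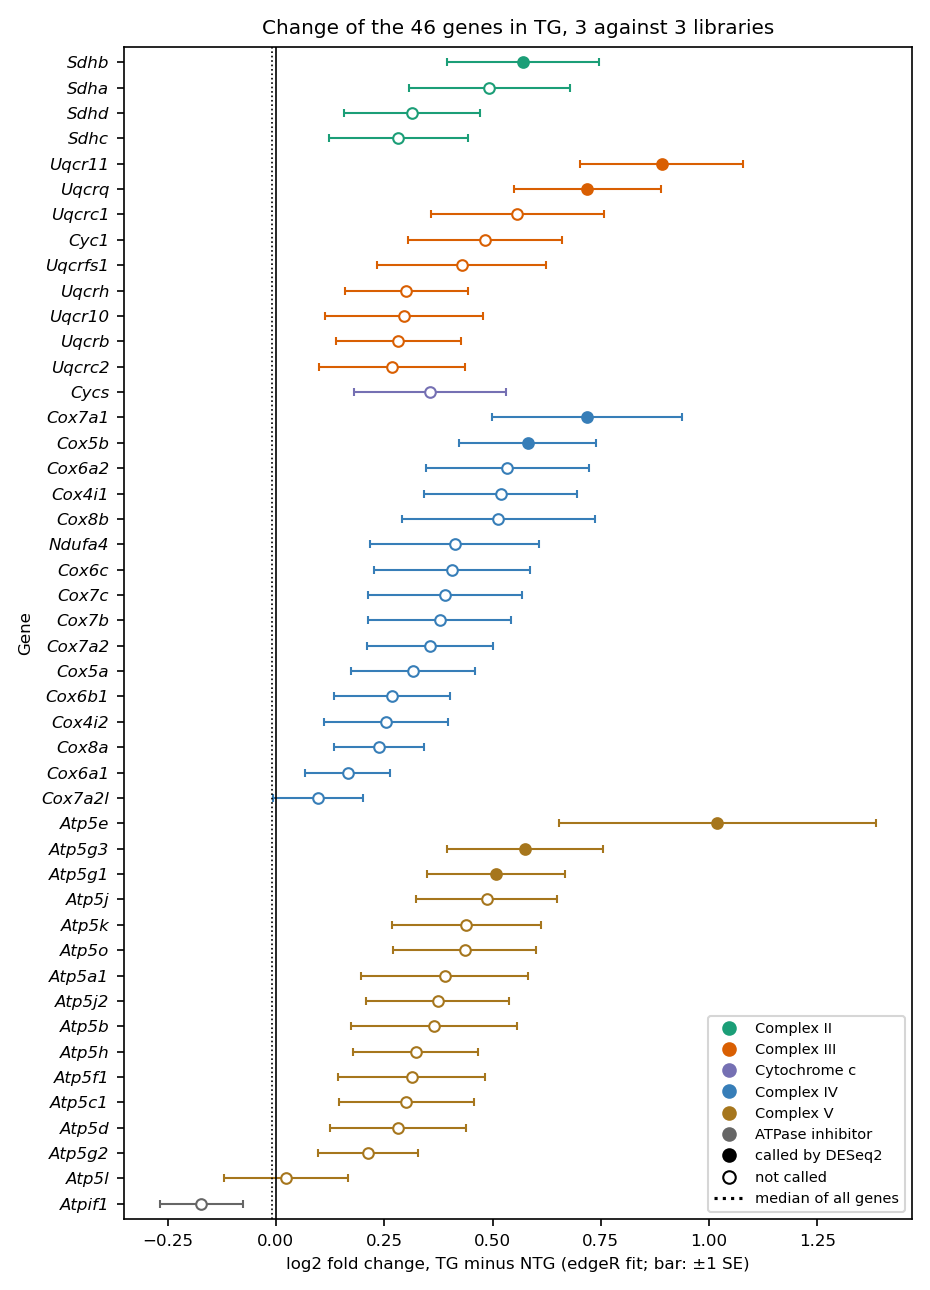
Fold changes of the 46 subunit genes, with the log2 fold change of TG against NTG on the horizontal axis and genes grouped by complex. Bars show a standard error derived from edgeR's test statistic. Points lie to the right of 0 for 45 genes, from Atp5l at 0.02 to Atp5e at 1.02, and Atpif1 lies to the left at -0.17.

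The 6 libraries followed much the same order for most members. NTG 2 was the lowest library for 42 of the 46 members, and the highest was TG 3 for 25 and TG 1 for 19. The library labelled NTG 1 was above both other NTG libraries for 43 members and above TG 2 for 30, so the 2 groups met between these libraries. Averaged over the members, on the log2 scale and relative to each gene's mean over the 6 libraries, the levels were 0.01, -0.42 and -0.20 in NTG 1 to 3 and 0.30, 0.01 and 0.31 in TG 1 to 3. The members together took 2.59%, 1.98% and 2.28% of all counts in NTG and 2.98%, 2.62% and 3.06% in TG.

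**Figure D2:**
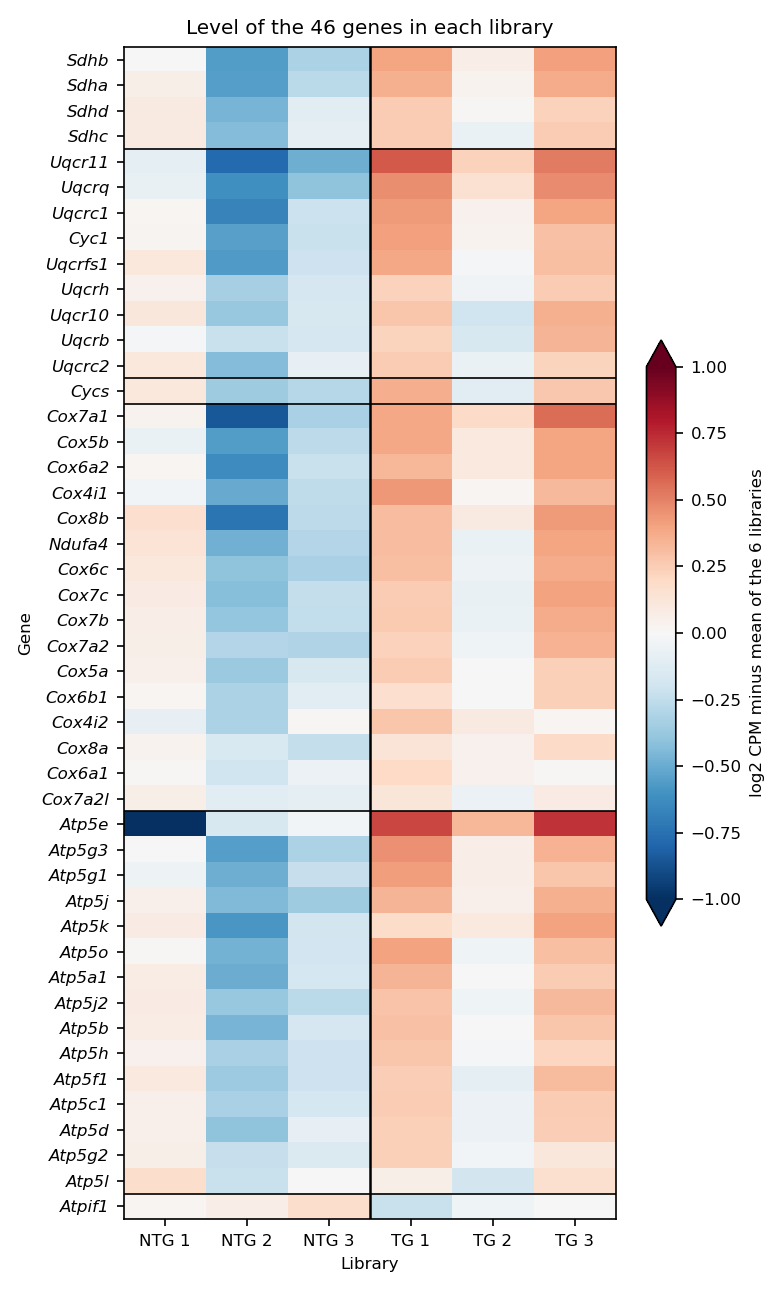
Level of each of the 46 subunit genes in each library, as log2 CPM minus the gene's mean over the 6 libraries, with genes in rows grouped by complex and libraries in columns; the colour scale runs from -1 to 1. The NTG 2 column is the lowest for 42 genes, and Atp5e in the library labelled NTG 1 lies below the scale.

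In complex II, the catalytic subunits differed more between the groups than the membrane anchors. Sdhb, the iron-sulphur subunit (GRCm38 chr4:140961203-140979193), had 548, 371 and 437 CPM in NTG and 716, 573 and 724 CPM in TG. All 3 TG libraries lay above all NTG libraries, although the library labelled NTG 1 came close to TG 2. The log2 fold change of Sdhb was 0.57 (SE 0.18), with an adjusted p of 0.204 in edgeR and of 0.0399 in DESeq2. Sdha, the flavoprotein that oxidizes succinate, had 901, 592 and 719.6 CPM in NTG and 1106, 886 and 1121 CPM in TG. The groups overlapped, since the library labelled NTG 1 exceeded TG 2, and the log2 fold change was 0.49 (SE 0.19, adjusted p = 0.227 in edgeR). Without that library the Sdha log2 fold change was 0.66 with an adjusted p of 0.0613 in edgeR, and 0.67 with one of 0.00169 in DESeq2. Without NTG 2 the Sdha log2 fold change was 0.36, and without TG 1 it was 0.44, with adjusted p of 0.493 and 0.507 in edgeR. Both anchors, which hold the catalytic head in the membrane and take part in binding ubiquinone, overlapped between the groups. Sdhc had 286, 198 and 251 CPM in NTG and 319, 255 and 320.1 CPM in TG, with a log2 fold change of 0.28 and an adjusted p of 0.368 in edgeR. Sdhd had 320.3, 219 and 279 CPM in NTG and 359, 304 and 353 CPM in TG, with a log2 fold change of 0.31 and an adjusted p of 0.318 in edgeR. Without NTG 2 these fold changes were 0.15 for Sdhc and 0.18 for Sdhd. Relative to the mean of the other complex II subunits in the same library, which removes any shift they share, Sdha and Sdhb were 0.11 and 0.21 higher in TG on the log2 scale, and Sdhc and Sdhd differed by -0.18 and -0.13. None of these 4 relative levels overlapped between the groups, and they are not independent of each other, because they sum to 0 in each library. For levels relative to a complex, here and in complexes III to V, no share over all genes was computed. How unusual the lack of overlap is was therefore not tested.

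Complex III held the member with the smallest p in edgeR, Uqcr11, a small accessory subunit (GRCm38 chr10:80402997-80406830). Uqcr11 had 239, 149 and 182 CPM in NTG and 390.2, 299 and 366 CPM in TG. The lowest TG library was above the highest NTG library by a clear margin. Its log2 fold change was 0.89 (SE 0.19), with an unadjusted p of 0.0015 and an adjusted p of 0.196 in edgeR and an adjusted p of 0.00155 in DESeq2. Uqcrq, another small accessory subunit (GRCm38 chr11:53427922-53430831), had 424, 291 and 337 CPM in NTG and 617, 497 and 618 CPM in TG. Its groups were also separate, and its log2 fold change was 0.72 (SE 0.17), with an adjusted p of 0.196 in edgeR and of 0.00501 in DESeq2.

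The core and electron-carrying subunits of complex III were closer between the groups. Uqcrc1, a core protein on the matrix side, had 860.5, 536 and 731 CPM in NTG and 1138, 877 and 1116 CPM in TG, a log2 fold change of 0.56 (SE 0.20, adjusted p = 0.217 in edgeR and 0.0787 in DESeq2). TG 2 exceeded the library labelled NTG 1 only slightly. Uqcrc2, the other core protein, had 552, 381 and 485 CPM in NTG and 614, 492 and 600.3 CPM in TG, which overlapped, with a log2 fold change of 0.27 (adjusted p = 0.41 in edgeR) that was 0.13 without NTG 2. Cyc1, which carries the haem of cytochrome c1, had a log2 fold change of 0.48 with separate groups. Uqcrfs1, the Rieske iron-sulphur protein, had one of 0.43 with overlap, which was 0.27 without NTG 2. The other accessory subunits Uqcrb, Uqcrh and Uqcr10 had fold changes of 0.28, 0.30 and 0.30 on the log2 scale, with 0.17 for Uqcrb and 0.16 for Uqcr10 under a length offset. Relative to the mean of the other subunits of complex III, Uqcr11, Uqcrq and Uqcrc1 were higher in TG without overlap, by 0.49, 0.28 and 0.11, and Uqcrc2, Uqcrh and Uqcr10 were lower, with -0.22, -0.19 and -0.21. Without NTG 2 the relative difference of Uqcrc1 was 0.05. Cycs, which carries electrons from complex III to complex IV, had 439, 319.7 and 336 CPM in NTG and 527, 379.9 and 493 CPM in TG, and its groups overlapped with a log2 fold change of 0.36 (SE 0.18, adjusted p = 0.313 in edgeR).

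**Figure D3:**
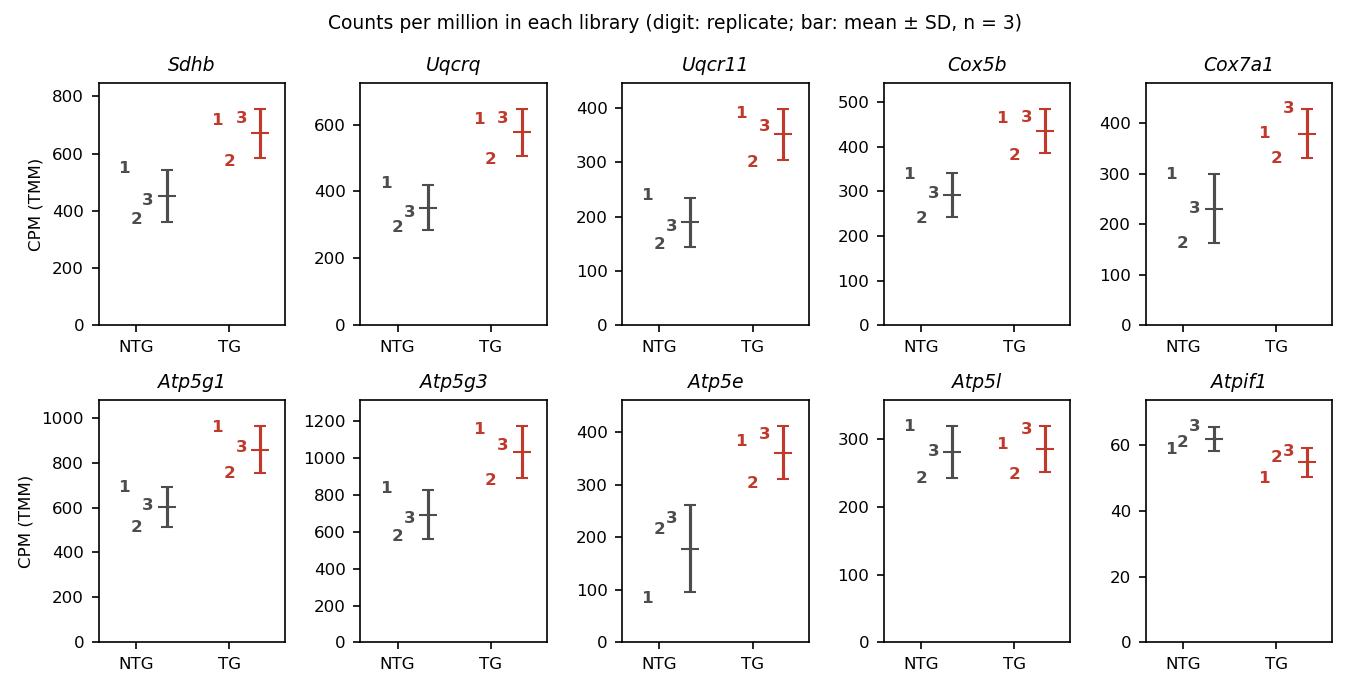
TMM-normalized CPM of 10 subunit genes in the 3 NTG and 3 TG libraries, with 1 point per library and the mean and SD of each group. Uqcr11 lay between 149 and 239 CPM in NTG and between 299 and 390.2 CPM in TG, and Atp5e was far lower in the library labelled NTG 1, at 83.4 CPM, than in the other 5.

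In complex IV, DESeq2 called 2 of 16 members higher in TG, Cox5b and Cox7a1, where it called 1.54% of all genes higher. edgeR called 0. Cox5b, a zinc-binding subunit (GRCm38 chr1:36691449-36693681), had 339, 240.2 and 296 CPM in NTG and 463, 379.5 and 465 CPM in TG. The groups were separate, and the log2 fold change was 0.58 (SE 0.16), with an adjusted p of 0.196 in edgeR and of 0.0215 in DESeq2. Cox7a1, the isoform of the 7a subunit found in heart and skeletal muscle (GRCm38 chr7:30184144-30186078), had 298, 162 and 232 CPM in NTG and 379, 331 and 428 CPM in TG. All TG libraries were above all NTG libraries, and the log2 fold change was 0.72 (SE 0.22), with an adjusted p of 0.204 in edgeR and of 0.0372 in DESeq2. Cox4i1, the most expressed isoform of the regulatory subunit IV, had 1082, 779 and 924 CPM in NTG and 1493, 1118 and 1382 CPM in TG, which were separate by a small margin (log2 fold change 0.52, SE 0.18, adjusted p = 0.213 in edgeR and 0.0542 in DESeq2). The fold changes of Cox5a, Cox6b1, Cox6c, Cox7b, Cox7c and Ndufa4 were 0.32, 0.27, 0.41, 0.38, 0.39 and 0.41 on the log2 scale, and these groups overlapped. With the length offset that of Cox6b1 was 0.15. Ndufa4, once counted with complex I and now known as a subunit of complex IV, was therefore within the range of the other ubiquitous subunits.

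Some complex IV subunits exist as a heart isoform and a more widely expressed one. The heart isoforms Cox6a2, Cox7a1 and Cox8b had a median log2 fold change of 0.53 and the paired isoforms Cox6a1, Cox7a2 and Cox8a one of 0.24. With the length offset these medians were 0.41 and 0.11. Cox6a2 had 959, 613 and 814 CPM in NTG and 1196, 1012 and 1248 CPM in TG, whereas Cox6a1 had 109.8, 95 and 104 CPM and 125, 112 and 109.6 CPM. Cox7a2 (GRCm38 chr9:79755361-79759878) had 202, 158 and 158 CPM in NTG and 228, 188 and 247 CPM in TG, overlapping, with a log2 fold change of 0.36. The heart isoform Cox8b had 440.3, 236 and 327 CPM in NTG and 487, 417 and 528 CPM in TG, and Cox8a 127, 112 and 105 CPM and 136, 128 and 142 CPM. The groups were separate for Cox6a2 and Cox8a and overlapped for Cox6a1 and Cox8b. Without the library labelled NTG 1, the Cox8b log2 fold change was 0.76, against 0.51 with it, and its adjusted p was 0.0493 in edgeR, whereas without NTG 2 it was 0.31.

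The coding sequences of Cox7a1 and Cox7a2 show how far the isoforms of a pair differ in this part of their transcripts. Reads were counted over longer gene models, of 535 bases for Cox7a1 and 944 for Cox7a2. They are given from the transcripts of GENCODE mouse release 21, with capitals for the bases that are identical in their alignment (65.8% of 234 aligned positions).
Cox7a1: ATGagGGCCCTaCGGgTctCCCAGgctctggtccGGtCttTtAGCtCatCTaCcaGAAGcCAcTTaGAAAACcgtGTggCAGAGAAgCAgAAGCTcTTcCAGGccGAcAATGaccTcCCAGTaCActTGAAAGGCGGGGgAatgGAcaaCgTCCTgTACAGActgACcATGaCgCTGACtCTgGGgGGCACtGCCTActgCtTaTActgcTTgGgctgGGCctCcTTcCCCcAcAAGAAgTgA
Cox7a2: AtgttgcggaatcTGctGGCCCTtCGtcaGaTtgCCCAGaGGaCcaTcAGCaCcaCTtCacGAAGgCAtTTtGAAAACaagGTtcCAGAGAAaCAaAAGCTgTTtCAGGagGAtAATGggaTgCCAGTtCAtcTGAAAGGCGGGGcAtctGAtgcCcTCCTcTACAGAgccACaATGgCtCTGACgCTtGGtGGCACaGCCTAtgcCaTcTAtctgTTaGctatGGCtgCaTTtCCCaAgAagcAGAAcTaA
The coding sequences of Cox6a1 and Cox6a2 were identical at 66.6% of aligned positions, those of Cox8a and Cox8b at 58.2%, and those of Cox4i1 and Cox4i2 at 69.8%.

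Ratios of 2 genes within a library do not change with the library's scaling, and 8 such ratios were computed per kilobase of gene model. Among these 8 was that of Atpif1 to Atp5b, which are not isoforms of each other. Cox7a1 was 2.60, 1.80 and 2.59 times Cox7a2 in NTG and 2.93, 3.10 and 3.06 times in TG. All TG ratios were above all NTG ratios, with a difference of 0.40 on the log2 scale and an exact two-sided permutation p of 0.1 (0.2 adjusted over the 8 ratios), the smallest that 3 against 3 libraries allow. Without NTG 2 the difference was 0.22. Cox6a2 was 9.02, 6.67 and 8.05 times Cox6a1 in NTG and 9.88, 9.31 and 11.8 times in TG, again separate, with a difference of 0.39. Cox8b was 5.23, 3.18 and 4.70 times Cox8a in NTG and 5.42, 4.93 and 5.62 times in TG, which overlapped, and the difference of 0.31 was 0.10 without NTG 2. In all 3 pairs the heart isoform was the larger part in every library, and NTG 2 had the lowest ratio. How often the ratios of other pairs of genes separate between the groups was not computed.

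Cox4i2 and Cox7a2l, the remaining complex IV members, had fold changes under the median of all members. Cox4i2, the isoform of subunit IV best known from lung, had 11.9, 10.1 and 12.7 CPM in NTG and 15.2, 13.4 and 12.7 CPM in TG, a log2 fold change of 0.25 (adjusted p = 0.365 in edgeR). For Cox4i2 this value was 0.16 without NTG 2 and 0.14 with the length offset. Its TG libraries lay above its NTG libraries by a very small margin, and per kilobase it had at most 0.0270 times the level of Cox4i1 in any library, or 0.0143 times with principal transcript lengths. Cox7a2l, a relative of the 7a subunits known for its place in supercomplexes of complexes III and IV, had 238, 213 and 213 CPM in NTG and 248, 220.1 and 242 CPM in TG, with a log2 fold change of 0.10 (adjusted p = 0.631 in edgeR), which was 0.01 with the length offset and between 0.06 and 0.15 with 1 library left out. Its ratio to Cox7a2 was 0.967, 1.11 and 1.11 in NTG and 0.895, 0.962 and 0.808 in TG, lower in TG without overlap, with a log2 difference of -0.26 (exact permutation p = 0.1). Relative to the mean of the other subunits of complex IV, Cox4i1, Cox5b, Cox6a2 and Cox7a1 were higher in TG without overlap, by 0.14, 0.21, 0.17 and 0.39, and Cox5a and Cox7a2l were lower, with -0.08 and -0.31. Without NTG 2 these differences were 0.10 for Cox6a2 and 0.26 for Cox7a1, and without TG 1 that of Cox4i1 was 0.08.

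**Figure D4:**
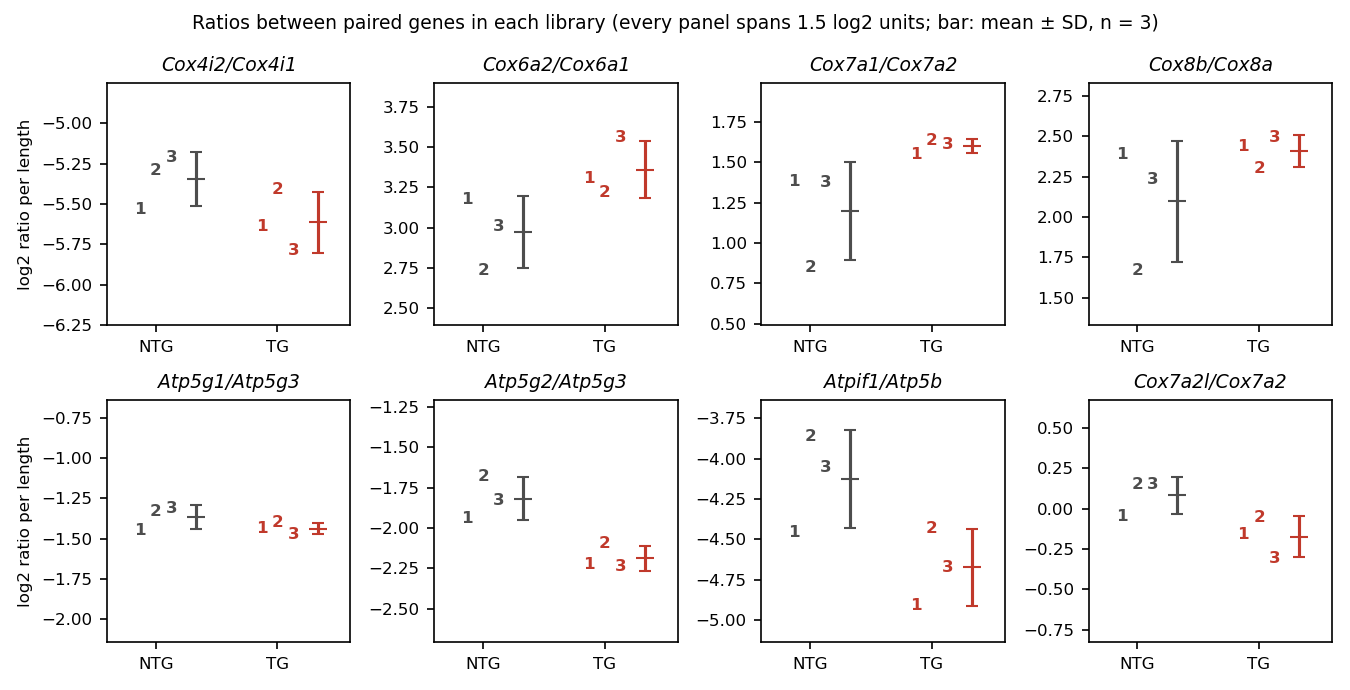
Ratios of 8 pairs of subunit genes per kilobase of gene model, on a log2 axis, with 1 point per library in NTG and TG; each panel spans the same number of log2 units. The TG ratios lie above the NTG ratios for Cox6a2 to Cox6a1 and Cox7a1 to Cox7a2, and below them for Atp5g2 to Atp5g3 and Cox7a2l to Cox7a2.

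In ATP synthase, the subunit with the largest fold change was Atp5e, the smallest subunit of the central stalk (GRCm38 chr2:174461072-174464105). Atp5e had 83.4, 215 and 236 CPM in NTG and 384, 304 and 397 CPM in TG, a log2 fold change of 1.02 (SE 0.37), with an adjusted p of 0.226 in edgeR and of 0.0404 in DESeq2. The library labelled NTG 1 was far below the other 5 here, whereas it was the highest NTG library for 43 members. Atp5e was the only member at under 0.5 of its level in every other library there, as were 43 of all 14774 genes. Without that library the Atp5e log2 fold change was 0.68, under the 0.73 of Atp5g3, so it was then no longer the largest. The other subunits of the rotor stalk and of the catalytic head were close to the median of the members. Atp5b, the catalytic beta subunit, had 3784, 2599 and 3202 CPM in NTG and 4405, 3579 and 4359 CPM in TG, which overlapped, with a log2 fold change of 0.36 (SE 0.19, adjusted p = 0.338 in edgeR). The fold change of the alpha subunit Atp5a1 was 0.39, that of the gamma subunit Atp5c1 0.30 and that of the delta subunit Atp5d 0.28 on the log2 scale. Without NTG 2 the values were 0.25 for Atp5a1, 0.24 for Atp5b and 0.16 for Atp5d. Among the peripheral stalk subunits, which keep the head from turning with the rotor, Atp5j had 357, 253 and 269 CPM in NTG and 434, 355 and 440.1 CPM in TG, a log2 fold change of 0.49 (SE 0.16, adjusted p = 0.212 in edgeR and 0.0767 in DESeq2). Its groups overlapped by a small margin, and Atp5f1, Atp5h and Atp5o had log2 fold changes of 0.31, 0.32 and 0.44 with overlap.

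The ring of c subunits is encoded by 3 genes whose mature proteins are the same and whose import signals differ. Atp5g1 (GRCm38 chr11:96068852-96075670) had 689, 511 and 610.1 CPM in NTG and 958, 750.3 and 866 CPM in TG, and Atp5g3 (GRCm38 chr2:73908447-73911326) 837, 572 and 673 CPM and 1153, 879 and 1067 CPM. Both were separate between the groups, with log2 fold changes of 0.51 (SE 0.16, adjusted p = 0.204 in edgeR and 0.0392 in DESeq2) and 0.57 (SE 0.18, adjusted p = 0.204 in edgeR and 0.0378 in DESeq2). Atp5g2 (GRCm38 chr15:102662864-102672352) had 167, 137 and 145 CPM in NTG and 189, 158 and 174 CPM in TG, which overlapped, with a log2 fold change of 0.21 (adjusted p = 0.351 in edgeR). Per kilobase, Atp5g2 was 0.260, 0.312 and 0.281 times Atp5g3 in NTG and 0.214, 0.233 and 0.212 times in TG, lower in TG without overlap, with a log2 difference of -0.37 (exact permutation p = 0.1), whereas the ratio of Atp5g1 to Atp5g3 overlapped, with a difference of -0.07.

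The last 237 coding bases of the 3 c-ring genes show where reads of these genes can be told apart, since they encode the same residues over 78 codons and the stop. Capitals mark the 64 positions at which the 3 sequences are not all the same.
Atp5g1: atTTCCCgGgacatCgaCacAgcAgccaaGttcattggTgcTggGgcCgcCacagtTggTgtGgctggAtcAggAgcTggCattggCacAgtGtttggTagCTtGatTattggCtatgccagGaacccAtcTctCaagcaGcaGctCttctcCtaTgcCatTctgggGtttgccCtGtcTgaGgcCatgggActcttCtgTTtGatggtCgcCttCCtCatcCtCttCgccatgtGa
Atp5g2: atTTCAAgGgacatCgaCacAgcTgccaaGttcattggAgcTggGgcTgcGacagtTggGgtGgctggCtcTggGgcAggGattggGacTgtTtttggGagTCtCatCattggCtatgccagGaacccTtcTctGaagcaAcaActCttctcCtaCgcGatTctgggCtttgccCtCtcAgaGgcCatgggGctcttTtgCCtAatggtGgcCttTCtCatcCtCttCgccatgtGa
Atp5g3: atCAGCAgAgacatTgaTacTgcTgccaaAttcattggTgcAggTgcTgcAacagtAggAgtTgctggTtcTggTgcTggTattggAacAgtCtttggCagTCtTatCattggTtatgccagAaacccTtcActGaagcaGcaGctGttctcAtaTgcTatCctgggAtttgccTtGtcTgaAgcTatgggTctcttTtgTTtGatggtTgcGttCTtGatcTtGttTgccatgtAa
The differences between these transcripts over this stretch are all silent.

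The smallest differences in complex V were in Atp5l and Atpif1. Atp5l, the g subunit in the membrane part, had 318, 241 and 282 CPM in NTG and 293, 248 and 315 CPM in TG, a log2 fold change of 0.02 (SE 0.14, adjusted p = 0.945 in edgeR) whose sign turned when scaled by library size alone and without NTG 2 or TG 3, and which was 0.12 without the library labelled NTG 1. Atpif1, which blocks the reverse reaction of ATP synthase, had 58.6, 60.8 and 65.7 CPM in NTG and 49.8, 56.3 and 58.1 CPM in TG. All TG libraries were below all NTG libraries, by a log2 fold change of -0.17 (SE 0.10, adjusted p = 0.357 in edgeR). With 1 library left out, the Atpif1 log2 fold change lay between -0.22 without TG 3 and -0.11 without TG 1. The other accessory subunits of the membrane part, Atp5j2 and Atp5k, had log2 fold changes of 0.37 and 0.44, without overlap for Atp5k only. Without NTG 2 that of Atp5k was 0.28. Relative to the mean of the other subunits of complex V, inhibitor not included, Atp5e was higher in TG without overlap, by 0.78 with all libraries and by 0.19 without the library labelled NTG 1, and Atp5c1, Atp5d, Atp5g2 and Atp5l were lower, with -0.12, -0.14, -0.22 and -0.42. The ratio of Atpif1 to Atp5b differed by -0.55 on the log2 scale, with overlap.

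Levels per kilobase of gene model spanned a wide range. Averaged over the 6 libraries, Cox6a2 was the highest, at 1432 CPM per kilobase, followed by Cox8b at 1128, Atp5a1 at 975, Atp5b at 863 and Cox4i1 at 729. The lowest were Cox4i2 at 16.1, Atpif1 at 40.4 and Atp5l at 43.9 CPM per kilobase, with the gene lengths the authors deposited. These levels depended on the length used. With the principal transcript of GENCODE release 21, a length chosen after the values had been seen, Atp5l had 519.8 CPM per kilobase in place of 43.9, since its deposited length is 6443 bases and its principal transcript 544. Atp5b was then the highest, at 1907, followed by Cox4i1 at 1477 and Cox6a2 at 1432, and Cox4i2 was still the lowest, at 17.3. Across the 46 members the fold change and the gene length had a Spearman's rho of 0.06, and the fold change and the mean log2 CPM one of 0.43, as descriptions across genes that share the same 6 libraries.

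The partner subunits encoded by mitochondrial DNA did not share 1 size of difference. mt-Co1, the catalytic subunit of complex IV, had 76404, 55625 and 60076 CPM in NTG and 96447, 63152 and 84461 CPM in TG, which overlapped, with a log2 fold change of 0.35. mt-Cytb, the cytochrome b of complex III, had 30803, 18209 and 21156 CPM in NTG and 32843, 23616 and 31041 CPM in TG, with overlap and a log2 fold change of 0.32. Counts on the nuclear subunits of complex IV per 100 counts on the mitochondrial ones were 8.58, 8.20 and 8.98 in NTG and 8.01, 9.97 and 9.31 in TG, and those of complex III were 13.9, 15.9 and 16.9 and 16.5, 17.9 and 17.1, both with overlap. For complex IV the log2 difference was 0.08 for these sums, most of which mt-Co1 made up, and -1.08 for means of log2 values, so its direction turned with the measure. mt-Co3 had 266, 249 and 227 CPM in NTG and 1239, 1280.4 and 2468 CPM in TG, mt-Atp6 331, 244 and 129 and 739, 935 and 1328, and mt-Co2 349, 498 and 216 and 1453, 640.5 and 769. mt-Atp8 had only 19, 19 and 14 counts in NTG and 97, 64 and 71 in TG. These 4 were separate between the groups, with log2 fold changes of 2.75, 2.09, 1.43 and 2.26. DESeq2 called them higher in TG, where it called 1.54% of all genes higher. edgeR called 0 of them, with an adjusted p of 0.196 for each. Nuclear counts of complex V per 100 mitochondrial ones were lower in TG without overlap, at 3876, 3758 and 8447 in NTG and 2095, 1333 and 1145 in TG. Mitochondrial genes have near-identical nuclear copies and the handling of such reads is not stated, so these counts are uncertain.

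Beside other mitochondrial transcripts, the subunits of complexes II to V had a smaller median fold change than those of complex I. All 36 complex I subunits tested were fitted higher in TG, where 48.7% of all tested genes were, with a median of 0.50. DESeq2 called 15 of them, where it called 1.54% of all genes higher, and edgeR called 0. The 3 with the smallest p in edgeR, Ndufs6, Ndufa2 and Ndufa13, had fold changes of 1.04, 0.82 and 0.66, and others such as Ndufa1 at 0.81 lay above Ndufa13. Per library, the mean log2 level of the members minus that of complex I was lower in TG without overlap, with a difference of -0.11. Of the assembly factors of complexes II to V, 35 of 37 were tested and 30 were fitted higher. DESeq2 called Cox11, Fmc1 and Cox14 among them, and edgeR called 0. The 3 with the smallest p in edgeR were Cox11, Fmc1 and Coa3, and the fold change of Coa3 was under the threshold. The copper chaperone Cox11 had 6.01, 6.11 and 4.80 CPM in NTG and 15.4, 10.6 and 10.1 CPM in TG, the ATP synthase assembly factor Fmc1 35.0, 21.2 and 26.1 and 56.0, 45.8 and 58.0, and the complex IV assembly factor Coa3 51.2 to 55.0 and 70.1 to 71.4. These 3 were separate between the groups, with log2 fold changes of 1.09 for Cox11, 0.96 for Fmc1 and 0.42 for Coa3. Cox14, another complex IV assembly factor, had a log2 fold change of 0.58, also without overlap. Markers of mitochondrial content were fitted higher in 12 of 12, with a median of 0.31, and the 3 with the smallest p in edgeR, Timm23, Phb2 and Tomm20, had fold changes of 0.47, 0.45 and 0.33. The largest was that of Slc25a4, at 0.58, the 1 content marker DESeq2 called, and edgeR called 0. Among 9 further subunits and associated proteins, 4 were tested, and Usmg5, Atp5s and Higd1a had fold changes of 0.42, 0.42 and 0.36.

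Cardiomyocyte markers differed between the groups by about as much as the members did. The mean log2 level of the members relative to that of the 8 cardiomyocyte markers overlapped between the groups, with a difference of -0.02. This difference was -0.08 without the library labelled NTG 1 and turned to 0.04 without NTG 2. Against the content markers the difference was 0.08, with 0.05 without TG 3 and 0.11 without TG 2. Against the assembly factors it was 0.14, and both of these overlapped. Relative to the cardiomyocyte markers of the same library, a measure chosen after the values had been seen, 18 members were higher in TG and 28 lower, with a median of -0.05, where 11% of all tested genes were higher. Without NTG 2 these counts were 25 and 21, with a median of 0.02. The members Sdha, Sdhb, Uqcrc1, Uqcrq, Uqcr11, Cox5b, Cox6a2, Cox7a1 and Atp5g3 were higher without overlap, where 1.9% of all genes were, and Sdhc, Uqcrc2, Cox7a2l, Atp5d and Atp5l were lower without overlap, where 22.3% were. Without NTG 2, 13 members were higher without overlap (3.6% of all genes). The members lower without overlap numbered 17 without the library labelled NTG 1 (68.2% of all genes), 10 without TG 2 (59.3%) and 8 without TG 3 (24.6%). The part of cell composition in these levels was not tested.

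**Figure D5:**
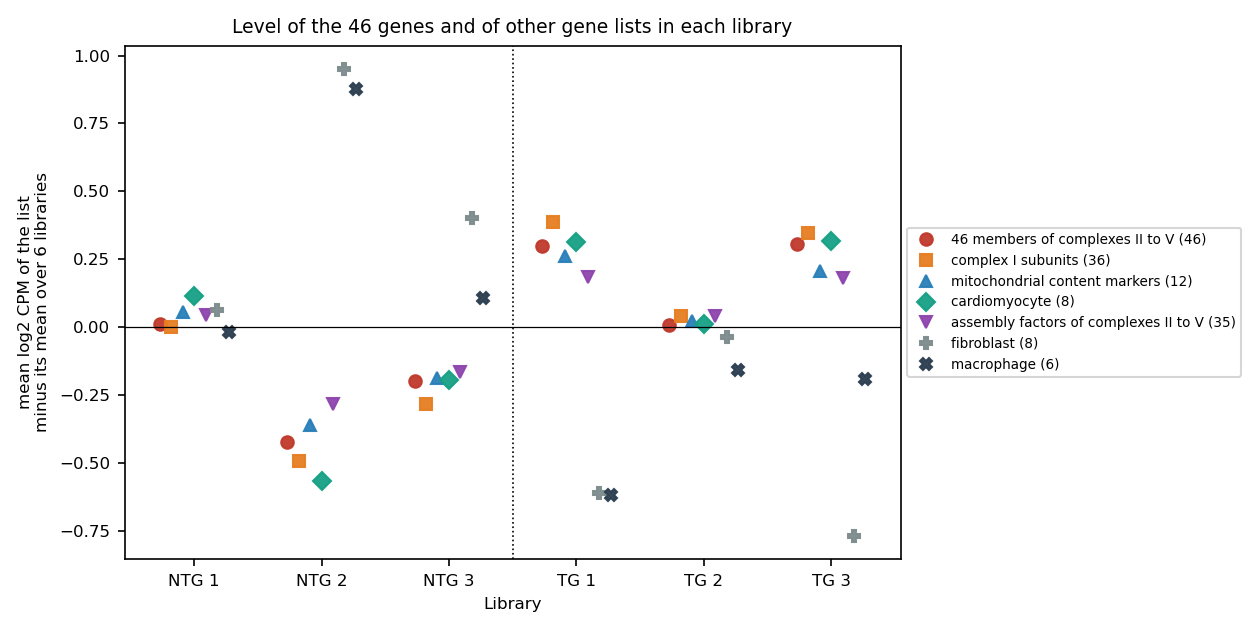
Mean log2 CPM of the subunit genes and of 6 comparison lists in each library, relative to each gene's mean over the 6 libraries, with 1 marker per library. The members and the cardiomyocyte markers take similar positions, with TG above NTG by 0.41 and 0.43, whereas the fibroblast and macrophage markers lie lower in TG, with differences of -0.94 and -0.64.

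Promoters of respiratory chain genes are known for sites of the nuclear respiratory factor NRF1, of ETS factors such as the GA-binding protein, of YY1 and of oestrogen-related receptors. Of the 46 members, 36 matched a RefSeq promoter of GRCm38.p6, from 250 bases before to 50 after the start. The NRF1 motif GCGCNTGCG, searched on both strands, was found in 16 of them (44.4%). It was found in 7.12% of all 27025 genes with a promoter and in 14.4% of the tested genes with one. A gene counted if any of its promoters held the motif. The ETS motif ACTTCCGG was in 4 (11.1%, against 4.31% of all and 8.47% of tested genes), the receptor motif TCAAGGTCA in 2 (5.56%, against 0.466% and 0.334%) and the YY1 motif AAGATGGCG in 2 (5.56%, against 1.64% and 3.33%), so the shares of ETS and YY1 lay near those of tested genes. Among the members called by DESeq2 that matched a promoter, Uqcr11 and Atp5g3 held such motifs, and Sdhb, Cox5b, Cox7a1, Atp5e and Atp5g1 held none of the 4 in this window. The 150 bases around the starts of Uqcr11 (chr10:80406792-80406941) and Atp5g3 (chr2:73911297-73911446), both on the minus strand of GRCm38.p6, are shown with the motifs in capitals, namely ETS and NRF1 in Uqcr11 and the receptor motif and NRF1 in Atp5g3.
Uqcr11: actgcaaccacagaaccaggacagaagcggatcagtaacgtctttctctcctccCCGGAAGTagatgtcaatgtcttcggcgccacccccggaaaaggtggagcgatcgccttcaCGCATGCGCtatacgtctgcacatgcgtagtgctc
Atp5g3: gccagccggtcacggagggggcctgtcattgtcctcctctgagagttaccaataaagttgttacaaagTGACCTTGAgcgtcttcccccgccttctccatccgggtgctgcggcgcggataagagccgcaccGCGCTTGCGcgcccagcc
A match of letters describes the sequence and not the binding of a factor.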

How the data were processed

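Poly-A RNA-seq was done on left ventricles of 3 TG and 3 NTG mice. The authors cleaned and mapped the reads, and the raw counts per gene they deposited, made with featureCounts and without normalization or pooling, were used here. The submitters' processing notes name HISAT2 and GRCh38, a human build, while 98.3% of the mouse genes have the coordinates of GENCODE mouse release 21 (GRCm38). Strandedness and the treatment of multi-mapping reads are not given in the sources used here, so members that overlap other genes are less certain, among them Atp5o, Atp5j, Cox6c, Cox4i1 and Atp5f1, whose overlapping genes held over 1000 counts, and Atp5d, Uqcrh and others whose overlapping genes held fewer. All 6 columns were matched to libraries by label.

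The group comparison used edgeR 4.0.16 in R 4.3.3 (TMM, filterByExpr by group, robust quasi-likelihood test), with Benjamini-Hochberg adjustment over 14774 genes, and called genes with an adjusted p below 0.05 whose absolute log2 fold change exceeded 0.5. CPM are TMM-normalized, and log2 CPM has a prior count of 2. Each SE is the absolute log2 fold change divided by the square root of edgeR's F statistic. On simulated data edgeR recovered 56 of 99 genes changed by 1 on the log2 scale (56.6%) and 90 of 100 changed by 2 (90%). DESeq2 recovered 68 of 99 (68.7%) and 93 of 100 (93%). Beside these true calls, edgeR made 15 false calls and DESeq2 37, among 14547 genes. Recovery of genes changed by as little as the members' median of 0.38 was not tested. Isoform ratios were compared with exact permutation tests in scipy 1.17.1. DESeq2 1.42.0, limma 3.58.1 (voom), other scalings and filters, a length offset, a replicate block and each library left out were alternatives. No 2 libraries agreed within sampling noise. The labels do not say how the hearts were grouped in preparation, so p-values measure the spread between these 6 libraries. Values were given in every library for the 3 members with the smallest p and those with the smallest and largest fold change in each complex, isoform pairs, Cycs, Atpif1, members higher in NTG and members called by DESeq2, and for Hint2 and the 6 mitochondrially encoded subunits. The 3 genes of each pathway list with the smallest p in edgeR were named with their fold changes. Cox14, Slc25a4 and Ndufa1 were added after their values had been seen. The members and lists were chosen with earlier results of these data known.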

Additional observations from a re-analysis of the deposited data

How the results depend on the processing

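The median fold change of the members stayed above 0 under every alternative, from 0.28 without NTG 2 to 0.52 without the library labelled NTG 1, and scaling by library size alone gave 0.29, with the median of all genes at -0.09. edgeR's 0 called members became 3 without a filter on low counts, 2 with a replicate block and 2 with the block and a length offset, and DESeq2 called 8 with both thresholds and 8 by adjusted p alone. Leaving out 1 library gave 0 to 9 members in edgeR and 0 to 26 in DESeq2 (13 without TG 2), and 15 to 43 members with TG above NTG throughout. Over all genes, 0 called higher became 116 without a filter, 84 with the block, 99 with block and length offset, 1 with voom, and 228 in DESeq2 (256 by adjusted p alone), and 0 called lower became 116, 147, 154 and, in DESeq2, 353 (366). Leaving out 1 library gave 0 to 404 higher and 0 to 432 lower in edgeR, and 29 to 896 and 70 to 877 in DESeq2, with 47 higher and 79 lower without NTG 2, 40 and 128 without NTG 3, 103 and 79 without TG 1 and 291 and 487 without TG 2. The cause was not tested. Libraries with the same number did not deviate together (correlations of 0.0807, 0.173 and -0.252), so the block is no paired analysis.

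The Atp5l log2 fold change turned to -0.0591 with library size alone, to -0.0746 without NTG 2 (-0.0717 in DESeq2) and to -0.0543 without TG 3 (-0.0479 in DESeq2), and the highest value with 1 library left out was 0.1228 in edgeR, without the library labelled NTG 1. Of the other alternatives for single members, 1032 kept direction and side of the threshold and 67 passed it with the same direction. The difference between groups in the ratio of nuclear to mitochondrial complex IV counts was 0.08 for summed counts and -1.08 for means of log2 values, which weigh mt-Co2 and mt-Co3 as much as mt-Co1. Spearman's rho of fold change and length was 0.06 for deposited and -0.12 for coding length, a measure chosen after seeing the data. Protein length from RefSeq was not run. The depth limits Cox4i2 most, the member with the fewest counts.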
